A study of Mus musculus with 4 samples.

Results

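Wild-type bone marrow-derived macrophages that had received IL-4 were compared with untreated ones by open chromatin, as deposited peak lists of 1 ATAC-seq library each. A peak of the IL-4 list with no untreated peak overlapping it by 1 bp or more was called gained, and an untreated peak with no IL-4 peak over it was called lost. The lists merged into 18177 regions, of the 20540 regions that had a peak in any of the 4 libraries of the study. ATAC-seq uses a transposase, Tn5, that cuts and tags DNA where it is not covered by nucleosomes, so that a peak marks a stretch open to the enzyme. All cells came from C57BL/6 mice, had grown for 5 days with 10% M-CSF, the growth factor of the macrophage lineage, and were used at 50000 cells a library. The IL-4 groups received 10 ng/mL for 6 h. The other pair of libraries came from macrophages without Slc6a8, the gene of the creatine transporter (KO), untreated or given IL-4 in the same way, and served here as a reading that did not choose the regions. The series set out to follow accessibility in polarizing macrophages short of creatine. The labels do not say how many mice gave marrow to a library. With 1 library per group no difference could be set against replicate error, no p-value was computed, and each statement compares these libraries.

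IL-4 binds a receptor made of IL-4R alpha and the common gamma chain, or of IL-4R alpha and IL-13R alpha 1. The receptor's JAK kinases phosphorylate STAT6, which enters the nucleus and binds palindromes of the letters TTC and GAA, many of them in enhancers far from gene starts. In mouse macrophages this programme is known for Arg1, Mrc1, Chil3 and Retnla, for the transcription factors Egr2, Myc and Pparg, and for repression of part of the inflammatory enhancers.

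The WT untreated list held 17339 peaks over 8.39 Mb and the WT IL-4 list was shorter, covering 6.22 Mb. The score of a peak is the authors' value, from about 50 to 3100, and ranks peaks within its own list. Read depth is unknown, and its part in the unequal list lengths was not tested. Nor can fewer cells with a region open be told apart from less opening per cell. Of 11 macrophage markers, 8 had a peak within 1 kb of a gene end in either WT library, 7 untreated and 3 with IL-4, and Cd68 and Itgam had none. Of 87 markers of other cell types, 7 had one untreated and 3 with IL-4, and none of those of mast cells, erythroid cells or fibroblasts did. The other cell types' lost markers were S100a8 of neutrophils, Cd5 of T cells, Ms4a1 of B cells and the neuronal Syn1, with untreated scores of 60.05, 105, 76.6 and 93.2. The part of such cells in the results was not tested.

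The 250 bases before a RefSeq start site (GRCm38.p6, the coordinates of mm10) are given for 9 genes whose start lost or gained its peak, so that the regions behind the later counts can be read. Shown are the gained 4931408C20Rik (chr1:26687461-26687710, minus strand, the gene with the highest-scoring gained edge peak) and Acadvl (chr11:70015429-70015678, minus). Of the lost, Akt2 (chr7:27591302-27591551, plus) and Irs2 (chr8:11008930-11009179, minus) act below the IL-4 receptor. Cebpb (chr2:167688665-167688914, plus) and Irf8 (chr8:120736108-120736357, plus) encode transcription factors of the lineage. Trem2 (chr17:48346151-48346400, plus) and Cx3cr1 (chr9:120068297-120068546, minus) encode surface receptors, and Tfrc (chr16:32608646-32608895, plus) the transferrin receptor. Each runs 5′ to 3′ on the gene's strand and ends 1 base before the start site, and capitals mark matches, on either strand, to the 6 motifs spelled out with the promoter counts.
4931408C20Rik: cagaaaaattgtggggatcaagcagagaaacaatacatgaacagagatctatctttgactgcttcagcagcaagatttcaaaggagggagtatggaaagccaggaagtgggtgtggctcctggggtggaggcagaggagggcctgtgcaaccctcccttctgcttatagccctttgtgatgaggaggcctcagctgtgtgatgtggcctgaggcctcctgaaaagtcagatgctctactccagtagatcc
Acadvl: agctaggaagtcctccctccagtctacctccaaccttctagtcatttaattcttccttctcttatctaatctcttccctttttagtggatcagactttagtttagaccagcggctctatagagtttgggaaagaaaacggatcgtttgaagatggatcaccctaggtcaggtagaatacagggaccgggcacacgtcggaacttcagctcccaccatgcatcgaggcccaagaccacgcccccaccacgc
Akt2: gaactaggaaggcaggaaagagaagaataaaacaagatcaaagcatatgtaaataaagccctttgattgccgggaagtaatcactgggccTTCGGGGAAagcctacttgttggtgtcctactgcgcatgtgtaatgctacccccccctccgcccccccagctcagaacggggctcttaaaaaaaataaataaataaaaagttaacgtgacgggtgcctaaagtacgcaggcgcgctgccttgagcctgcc
Irs2: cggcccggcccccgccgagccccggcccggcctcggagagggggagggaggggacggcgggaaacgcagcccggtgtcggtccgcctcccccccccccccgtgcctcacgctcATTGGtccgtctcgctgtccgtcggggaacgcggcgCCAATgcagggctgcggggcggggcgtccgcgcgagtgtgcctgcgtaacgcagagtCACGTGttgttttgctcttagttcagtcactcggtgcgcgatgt
Cebpb: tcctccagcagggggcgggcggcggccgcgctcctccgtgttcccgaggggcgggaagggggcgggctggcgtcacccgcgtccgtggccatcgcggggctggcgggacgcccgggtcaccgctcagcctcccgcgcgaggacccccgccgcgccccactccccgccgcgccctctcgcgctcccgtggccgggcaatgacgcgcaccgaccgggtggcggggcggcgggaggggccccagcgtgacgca
Irf8: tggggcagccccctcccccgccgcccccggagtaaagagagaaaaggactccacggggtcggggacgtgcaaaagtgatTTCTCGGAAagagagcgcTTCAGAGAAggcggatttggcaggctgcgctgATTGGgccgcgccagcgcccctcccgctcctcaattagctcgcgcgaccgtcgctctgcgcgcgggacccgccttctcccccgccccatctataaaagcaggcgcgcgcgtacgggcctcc
Trem2: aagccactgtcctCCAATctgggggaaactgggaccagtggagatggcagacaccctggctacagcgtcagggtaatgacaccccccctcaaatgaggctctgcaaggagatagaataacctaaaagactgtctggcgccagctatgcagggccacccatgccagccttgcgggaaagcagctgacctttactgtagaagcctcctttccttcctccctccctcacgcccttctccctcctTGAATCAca
Cx3cr1: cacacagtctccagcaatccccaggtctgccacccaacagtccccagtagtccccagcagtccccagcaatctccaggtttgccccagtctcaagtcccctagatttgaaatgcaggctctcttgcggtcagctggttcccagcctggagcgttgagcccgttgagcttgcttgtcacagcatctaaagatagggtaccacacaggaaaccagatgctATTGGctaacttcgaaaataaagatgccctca
Tfrc: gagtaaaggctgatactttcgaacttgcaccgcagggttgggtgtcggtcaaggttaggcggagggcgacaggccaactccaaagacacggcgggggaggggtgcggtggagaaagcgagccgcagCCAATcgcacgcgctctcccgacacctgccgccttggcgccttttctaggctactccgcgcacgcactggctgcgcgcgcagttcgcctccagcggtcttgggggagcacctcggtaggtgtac
Akt2 held 1 match to the STAT letters, 160 bases before its start, and Irf8 held 2, at 171 and 153 bases. Irs2 held 2 CCAAT boxes and an E-box, and Trem2 an AP-1 match 9 bases before its start. Cebpb and both gained windows held no match to these letters, which says only that the letters are not in these windows.

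With IL-4, 1024 peaks were gained (10.3% of the IL-4 list, 95% interval 9.72 to 10.9) and 8273 of the 17339 untreated peaks were lost (47.7%, 47.0 to 48.5). Intervals here are exact binomial (Clopper-Pearson) and reflect counting error alone. The remaining 8880 regions were shared. Both sets of library-specific peaks lay mostly away from gene edges, a gene edge being any position up to 1 kb from where a protein-coding span begins or stops and everything else being distal. Of the gained regions 25.0% lay at an edge (256 of 1024, 22.4 to 27.8) and of the lost 30.1% (2494 of 8273, 29.2 to 31.1), against 56.9% of the shared (5056 of 8880, 55.9 to 58.0). Edge peaks of the untreated list had an IL-4 peak in 67.4% (66.3 to 68.4) and distal ones in 40.4% (39.4 to 41.4). Edge peaks of the IL-4 list had an untreated peak in 95.2% (94.6 to 95.7) and distal ones in 83.3% (82.2 to 84.4). The ends used include both starts and 3′ ends. Of lost edge peaks 73.7% lay within 1 kb of a listed start site, of gained ones 68.4%, and of shared ones 81.0% in either list. Of the distal peaks, 8.10% untreated and 9.89% with IL-4 lay within 1 kb of a start site inside a gene.

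The gap between edge and distal peaks was also seen among peaks of like score, as in the plot of overlap by score. Each list was cut into 10 equal parts by score. Edge peaks overlapped more often than distal peaks in 10 of 10 parts of the untreated list and in 9 of 10 of the IL-4 list. In the lowest part of the untreated list, 25.0% of edge peaks (21.1 to 29.2) and 12.8% of distal peaks (11.04 to 14.8) had an IL-4 peak. In the highest part the shares were 99.9% and 99.1%, and for IL-4 peaks 100% in both classes. Specific peaks were the weaker and narrower ones of their list. Lost peaks had a median score of 73.4 and a median width of 365 bp, against 157 and 531 bp for shared untreated peaks. Gained peaks had a median of 58.5 and 463 bp, against 90.8 and 603.5 bp for shared IL-4 peaks. Distal gained and lost regions lay at similar distances from genes. Their median distance to the nearest gene end was 19366.5 bp for gained and 18467 bp for lost regions, and 52.7% (49.1 to 56.3) and 54.8% (53.5 to 56.1) lay inside a gene span.

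**Figure D1:**
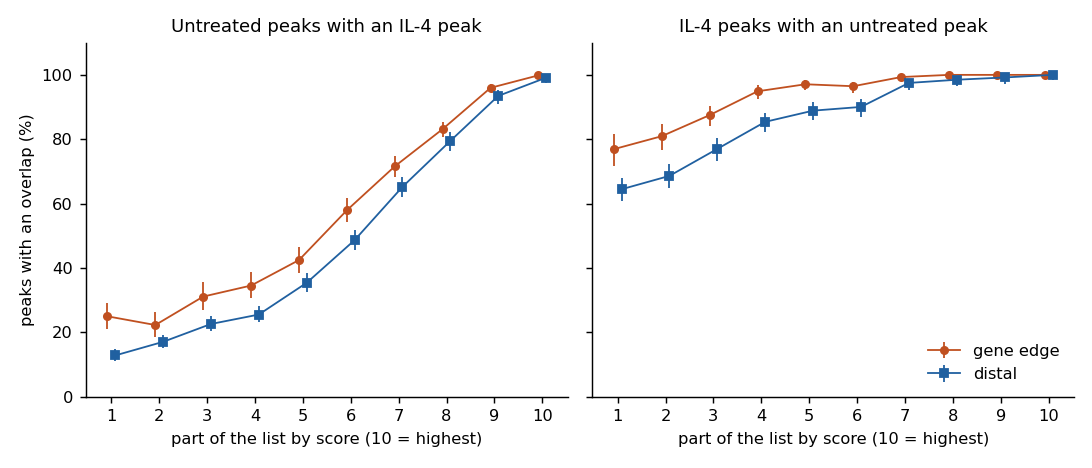
Percent of untreated peaks with an overlapping IL-4 peak (left) and of IL-4 peaks with an overlapping untreated peak (right), by part of the list by score (10 equal parts), for gene-edge and distal peaks, with exact 95% intervals as bars. Overlap runs from 25.0% (edge) and 12.8% (distal) in the lowest untreated part to 99.9% and 99.1% in the highest.

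The 10 highest-scoring lost edge peaks included those of Ccno, a cyclin of multiciliated cells (281), and Zdhhc12, a palmitoyltransferase (274). Others lay at Lgmn, a lysosomal protease (256), Gclm, a subunit of the enzyme that begins glutathione synthesis (253), and Stom, a membrane scaffold protein (235). All 10 also had a peak in both KO libraries, where Lgmn scored 113 untreated and 88.3 with IL-4, and Gclm 133 and 105. Gained edge peaks scored lower in their own list. They included 4931408C20Rik (107), Galm, an epimerase of galactose metabolism (104), and Slc37a2, a sugar phosphate carrier (103). Arhgap18, a GTPase-activating protein, had 98.2 and Tmsb10, an actin-binding thymosin, 95.1. In the KO libraries 4931408C20Rik, Galm and Tmsb10 had an untreated peak (96.4, 86.9 and 98.2) and none with IL-4, opposite to WT. Slc37a2 had a KO peak with IL-4 alone (66.4), and Arhgap18 had 84.85 untreated and 90.5 with IL-4. At Slc37a2 the gained peak lay at chr9:37229722-37230169, near the 3′ end, while the untreated list had a peak of 88.4 at the gene's edge that IL-4 lacked at the start site.

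The highest gained distal peak lay 40055 bp from Akap7, an anchor of protein kinase A, at chr10:25128267-25129035. It scored 168, at the 86.4th percentile of the IL-4 list, with 109 in the KO IL-4 library and no KO untreated peak. The next ones lay 213137 bp from Tet2, a DNA demethylating enzyme, at chr3:133758273-133759007 (147), and inside Lpgat1 at chr1:191756394-191756981 (138). Both again had a peak in KO IL-4, of 125 and 54.6, and none in KO untreated. This was not the rule among strong gained distal peaks. Of the 50 with the highest scores, 11 had a KO IL-4 peak alone, 11 a KO untreated peak alone, 10 both and 18 neither. Of the 10 highest gained distal peaks, the one near Bmp6, a growth factor of iron control, had no KO peak. The highest lost distal peak was 5492 bp wide, at chr9:2999940-3005431 and 329800 bp from the nearest gene end, and scored 2678. KO untreated had no peak there and KO IL-4 one of 92.2. The median width of lost peaks was 365 bp, and peaks were not screened here for repeated sequence. The next highest lost distal peak, inside Wdr20 at chr12:110737720-110738084, scored 310, and 153 and 92.6 in the KO libraries.

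To set the lists at equal length, every IL-4 peak was compared with the same number of untreated peaks, those of highest score. The lowest untreated score kept and the highest left out were both 89.57, and 7409 untreated peaks were left out. By construction gained and lost peaks were then nearly equal in number, 2581 (26.0%) and 2565 (25.8%). Of the gained, 1557 (60.3%, 58.4 to 62.2) had an untreated peak that was left out. Gained peaks lay at a gene edge in 30.8% (29.0 to 32.6) and lost peaks in 39.6% (37.7 to 41.5). Gained and lost peaks were not matched on score here, and the IL-4 list was kept down to a score of 50. Edge peaks were more frequent at high scores. The lowest of the 10 parts of the IL-4 list held 312 edge and 681 distal peaks, the highest 777 and 216.

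The shared 7323 of 12469 regions could be ranked in both lists, where the Spearman correlation of ranks was 0.71 over regions, which share libraries and are no replicates. The median absolute difference was 1182 places. A region ranked 3000 or better untreated cannot climb by 3000 places, and 2240 of 4514 edge but 707 of 2809 distal regions started there, with median untreated ranks of 3021.5 and 5088. Of those that started beyond rank 3000, 16.6% of distal regions (349 of 2102, 15.04 to 18.3) and 13.8% of edge regions (313 of 2274, 12.4 to 15.2) climbed that far. These intervals overlap, and edge and distal regions beyond that rank were not matched further on starting rank. Drops of 3000 places or more were seen for 9.79% of all distal regions (275 of 2809) and 8.31% of all edge regions (375 of 4514). These shares were not limited to regions whose starting rank left room for such a drop.

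**Figure D2:**
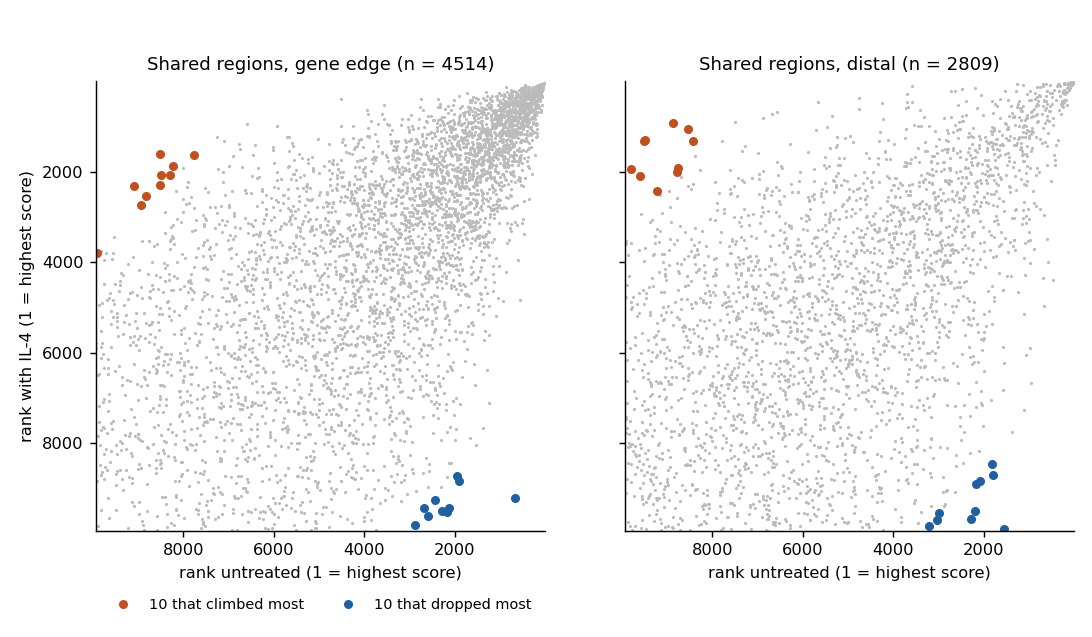
Rank untreated (x axis) against rank with IL-4 (y axis) of regions shared at equal list lengths, 1 being the highest score, for 4514 edge regions and 2809 distal regions. Coloured points are the 10 that climbed and the 10 that dropped most in each class, such as Cmc1 from 669 to 9211 and a region near Nxpe4 from 9496 to 1296.

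Among distal regions, one whose nearest gene end was that of Nxpe4 climbed most, from rank 9496 to 1296. A region 7879 bp from an end of Anxa5 and inside a gene span, a phospholipid-binding annexin, went from 9501 to 1324. Regions near Cblb, a ubiquitin ligase that dampens immune receptors, and near Cd200, the ligand of an inhibitory myeloid receptor, went from 9802 to 1949 and from 9229 to 2425. KO libraries had no peak at the Cblb region and scored 115 untreated and 148 with IL-4 at the Cd200 region. The largest distal drop was near Lipe, the hormone-sensitive lipase, from 1558 to 9900. Drops near Tank, an adaptor of TRAF signalling (1794 to 8703), Lgals3, galectin-3 (2098 to 8840), and the kinase Src (3217 to 9826) were among the 10 largest. At gene edges, Frmd6, of the FERM family, climbed from 8510 to 1610. Tiparp, a PARP induced through the aryl hydrocarbon receptor, climbed from 8299 to 2071. Cmc1, an assembly factor of cytochrome oxidase, dropped from 669 to 9211 and Ccl2, the monocyte chemokine, from 1911 to 8834. Rnf2, the ubiquitin ligase of Polycomb complex 1, went from 2290 to 9492 and Kdm5c, a histone H3 lysine 4 demethylase, from 2681 to 9421.

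At gene level, 8358 of 21887 protein-coding genes had an untreated edge peak and 6205 an IL-4 one. Of the 8358, 2409 (28.8%) had none with IL-4, and of the 13529 without one, 256 (1.89%) had one with IL-4. In 12 lost and 28 gained genes a shared peak only changed its reach. Lost genes had weaker untreated edge peaks, at a median percentile of 38.9 of the untreated list, against 80.5 for genes that kept theirs. At equal list lengths, 1081 of 6419 genes (16.8%) were lost and 867 of the other 15468 (5.61%) gained. These shares over all genes are the background of the list counts below, and nothing is called particular to a list from them.

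Of surface receptor and complement genes with an untreated edge peak, 10 of 17 lost it, at a median percentile of 48.1 for the untreated peaks, and at equal length 4 of 9 did and 3 were gained. The highest-scoring were Cx3cr1, the fractalkine receptor (113), C1qb and C1qa, subunits of complement C1q (112 and 97.8), and Trem2, a lipid-sensing receptor (108). KO untreated had a peak of 86.5 at Cx3cr1, 93.1 at C1qb and 84.04 at Trem2, and KO IL-4 had none at Cx3cr1, 66.5 at C1qb and 77.6 at Trem2. Tyrobp, the adaptor through which Trem2 signals, was the gained gene of the list, with a peak of 61.7 and none in either KO library. Chemokines and their receptors lost 6 of 10 edge peaks and gained 0, and at equal length lost 3 of 7 and gained 0, with Cxcr4 (96.2) and Ccl24 (97.1) among them. For both the KO libraries had a peak with IL-4 alone, of 57.6 and 78.6.

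Interferon response genes lost 12 of 24 edge peaks. The untreated edge peaks of the 24 genes had a median percentile of 36.1, beside 70.6 over all genes with an untreated edge peak. The part of peak strength in the loss was not tested. At equal length 3 of 9 were lost and 7 were gained. Gbp3, a guanylate-binding protein (110), and Ifit2, an antiviral effector (106), were among those with the highest lost peaks, and both had KO peaks with and without IL-4. Ifnar2, a subunit of the type I interferon receptor, was gained (59.1). Genes of the NF-kB pathway and inflammatory cytokines lost 7 of 16, and at equal length lost 4 of 13 and gained 1. Il10, the anti-inflammatory cytokine (140), Birc3, a ubiquitin ligase (127), Ikbkg, the regulatory subunit of the IKK complex (111), and Cd80, a costimulatory ligand (107), led them. Pattern recognition genes lost 6 of 15, with Casp1, the inflammasome protease (173), far above the next, Irak3 (78.3), and gained Tirap (90.3) and Tlr6 (52.0). At equal length 1 of 9 was lost and 3 were gained. AP-1 and immediate early genes lost 5 of 12, among them Ier3 (141), Fosl2 (83.7), Dusp1 (76.9) and Fosb (76.7). At equal length they lost 2 of 9 and gained 0, and Fosl2, Dusp1 and Fosb had no edge peak in either list.

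The lineage's own transcription factors were nearer to the background, with 4 of 17 lost. These were Cebpb, a C/EBP factor that acts in myeloid cells (151), Tfeb, which drives lysosomal genes (96.2), Irf8 (73.8) and Spi1, the gene of PU.1 (53.2). Cebpb, Irf8 and Spi1 had no edge peak in either KO library. MHC class II genes were few: H2-Ab1 (52.2) and H2-DMb1 (57.2) were lost of 4, and H2-DMb2 was gained (68.0).

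Several metabolic and general lists lay near the share of all genes. Oxidative phosphorylation lost 9 of 29, led by Ndufs1 of complex I (166) and Cox5b of complex IV (163), glycolysis 6 of 20, lysosome 7 of 25 and housekeeping genes 8 of 26. In the first of these, Cox4i1 (122) and Uqcrc1 of complex III (108) followed. Chromatin regulators lost 9 of 24, with the acetyltransferase Ep300 (101) and Brd7 of the PBAF complex (124), and at equal length lost 2 of 14 and gained 3. Cell cycle genes lost 5 of 26, with Ccnb2 (144) and Cdk2 (136), and their untreated edge peaks were strong, at a median percentile of 81.7. Lipid handling genes lost 4 of 26, the highest being Fasn, fatty acid synthase (193), and Ppard, a nuclear receptor of fatty acids (118). They gained Acadvl, the very long chain acyl-CoA dehydrogenase (59.5), and 7 genes at equal length. In arginine and creatine metabolism 0 of 10 were lost and Ckb, brain creatine kinase, was gained (56.5), with 62.4 in KO untreated and no peak in KO IL-4.

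**Figure D3:**
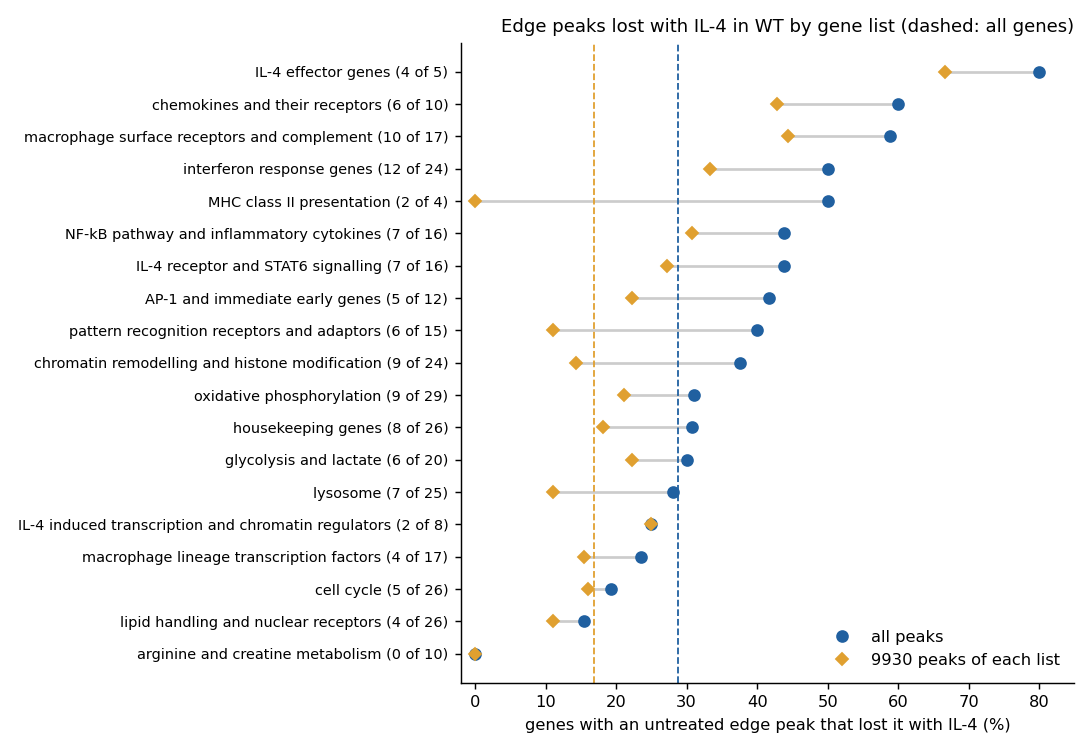
Percent of the genes with an untreated edge peak that had none with IL-4, by gene list (counts in brackets for all peaks), from all peaks (circles) and at equal list lengths (diamonds). Dashed lines are all genes, 28.8% and 16.8%, and the lists run from 0 of 10 for arginine and creatine metabolism to 4 of 5 for IL-4 effector genes.

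Few IL-4 effector genes had an edge peak at all. Of 40, 5 had one untreated, and 4 of these were lost, where 28.8% were lost over all genes. The 5 untreated edge peaks had a median percentile of 47.7, beside 70.6 over all genes with one. The lost ones were Tfrc (111), Ccl24, an eosinophil chemokine (97.1), Ccl9 (62.5) and Ear2, an eosinophil-associated ribonuclease (56.7, 664 bp downstream). Tfrc is also counted among the lost housekeeping genes, and Ccl24 and Ccl9 among the lost chemokine genes. At equal length 2 of 3 were lost and 1 was gained. Ptgs1, cyclooxygenase 1, gained one over its 5′ end (91.0), with 93.8 in the IL-4 KO library and none in the untreated one. The transcription factors and chromatin regulators induced by IL-4 lost 2 of 8, Bhlhe40, a basic helix-loop-helix factor (103), and Myc (92.0), both of which had an edge peak in both KO libraries. Bhlhe40 scored 158 (untreated) and 169 (IL-4) there.

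IL-4 receptor and STAT6 signalling genes lost 7 of 16 edge peaks and gained 0, and at equal length lost 3 of 11 and gained 1. The lost ones were Akt2 (156), the adaptor Grb2 (93.4), Stat6 itself (92.2), the kinase Jak3 (88.0), the receptor substrate Irs2 (82.3), the PI3 kinase subunit Pik3cd (75.8) and the feedback inhibitor Socs3 (73.7). The untreated KO library had a peak at all 7, and the IL-4 KO library at Stat6 and Pik3cd alone, of 59.3 and 64.7. Socs1, an inhibitor of JAK signalling that STAT factors induce, had the opposite order. Its edge region at chr16:10784863-10786660 scored 73.3 untreated, below the equal-length limit, and 160 with IL-4, at rank 1525. The KO libraries had 82.0 untreated and 160 with IL-4, the same order. Edge peaks of Jak1, Tyk2 and Stat3 were shared. Mtor, the growth kinase, shared the peak over its 5′ end (350 untreated and 120 with IL-4) and lost one 650 bp downstream of its span (102). Cish, another feedback inhibitor, went from rank 4880 (157) to 8016 (59.9).

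Distal regions around the 59 genes of the lists of IL-4 effectors and of IL-4 induced regulators were then taken one by one, within 100 kb of each gene span. Neighbourhood is by distance alone, and a region may act on another gene. There were 150, of which 19 (12.7%) were gained, 83 (55.3%) lost and 48 shared. Over all 9595 distal regions within that distance of a gene, 7.27% were gained and 56.0% lost. At equal length 35 of 91 (38.5%) were gained and 24 (26.4%) lost, beside 29.0% and 25.2% over all, and 16 of the 35 had an untreated peak that was left out. Gained regions were weak, with a median score of 58.7, and lost ones had 69.9. Of the 32 regions ranked in both lists, 16 ranked higher with IL-4, beside 1507 of 2809 over all distal regions. The gained regions lay around 17 of the 59 genes. Genes with no distal region near them included Retnla, Chil3, Chil4, Ccl17, Ccl6, Ccl9, Fn1 and Vegfa.

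Arg1, the arginase that is the standard product of IL-4 in mouse macrophages, had 3 distal regions. The one 2588 bp beyond its span, at chr10:24930058-24930590, scored 64.9 untreated, below the equal-length limit, and 121 with IL-4, at rank 2785. In the KO libraries it scored 59.8 untreated and had no peak with IL-4. The other 2 were lost, at 3440 bp on the other side (120, and 67.2 in KO untreated) and at 22800 bp (55.6). The KO libraries thus went against the WT order at the region that stood higher with IL-4.

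Flt1, a receptor of VEGF, had 5 distal regions. A region inside it, at chr5:147611201-147611803, scored 186 untreated and 227 with IL-4, and went from rank 3669 to 577. The KO libraries had 289 and 296 there, high in both states. A gained region lay 60309 bp upstream (78.7), with 69.7 in KO IL-4 and none in KO untreated, and a lost one 16171 bp upstream (61.2). Near Tfrc, a region 56000 bp downstream, at chr16:32688794-32689407, had 68.1 untreated and 132 with IL-4, at rank 2330, and in the KO libraries a peak with IL-4 alone (108). Its direction was opposite to that of the Tfrc edge peak. Il31ra, a receptor of IL-31, gained a region inside the gene (73.1, and 71.7 in KO IL-4 alone), and Ear2 gained regions 10800 bp (64.4) and 50319 bp (50.4) upstream. Mrc1, the mannose receptor, kept regions 63299 and 22168 bp upstream and lost 3, the highest 36955 bp upstream (155). Tgm2, transglutaminase 2, lost a region inside the gene (204, with 138 and 75.0 in the KO libraries).

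Around the early transcription factors gained and lost regions lay side by side. Egr2, a zinc finger factor that acts downstream of STAT6, had a region inside it, at chr10:67537356-67538065, of 70.6 untreated and 93.4 with IL-4, at rank 4324. In WT its percentile within its own list was 27.1 untreated and 56.5 with IL-4. It had no KO untreated peak and 80.4 in KO IL-4. A region 56364 bp downstream was lost (123). Egr3 gained regions at 13474 bp, chr14:70096087-70096620 (110), and at 2112 bp (58.4), and for both the KO peak was the untreated one. The first of these lay nearer to another gene, 3469 bp from an end of Bin3. Myc gained a region 88882 bp beyond it, at chr15:62079243-62079897 (101), with no KO peak, and lost those at 9324 bp (116) and 66049 bp (106). Kdm6b, a histone H3 lysine 27 demethylase, gained a region inside the gene (84.4, 56.1 in KO IL-4 alone), 1 of its 4, and lost one at 31518 bp (220). Klf4, Maf and Pparg gained none and lost 4, 5 and 3. The highest lost near Pparg, a lipid-sensing nuclear receptor, lay 76377 bp upstream (146).

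**Figure D4:**
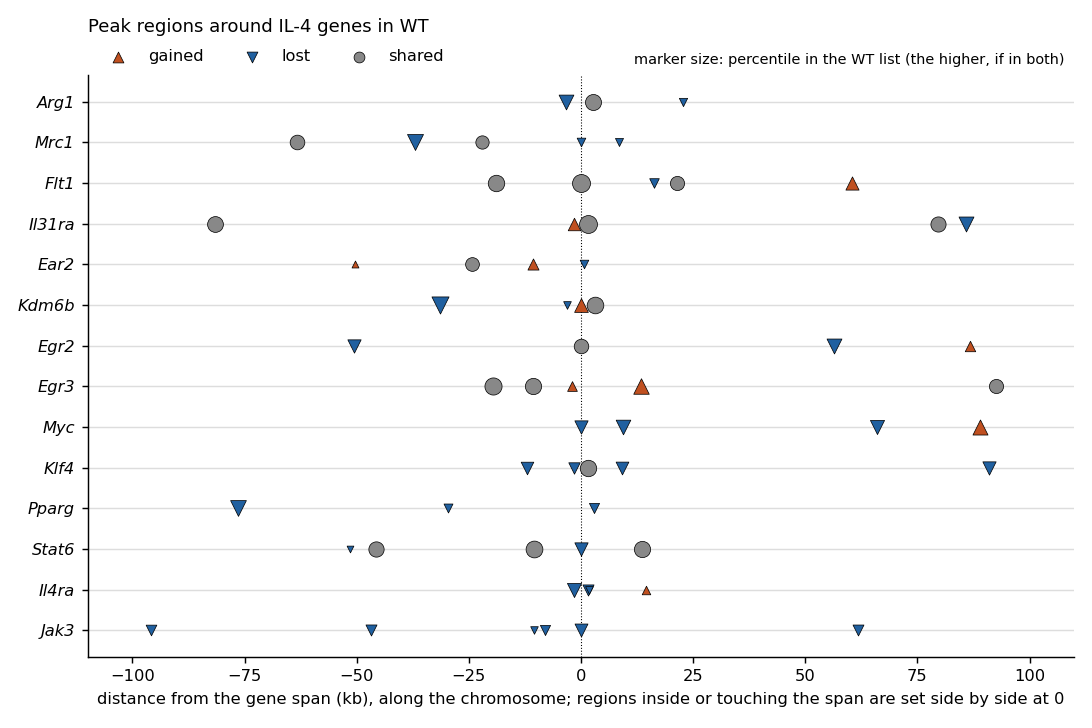
Distance in kb of distal and edge regions from the spans of 14 IL-4 genes, along the chromosome, with regions inside or touching a span set side by side at 0, for gained, lost and shared regions. Marker size grows with the percentile in the WT list; Egr3, Kdm6b, Ear2 and Flt1 have gained regions, and Klf4, Pparg and Jak3 have none.

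Around the 28 signalling genes 4 of 82 distal regions were gained (4.88%) and 43 lost (52.4%), beside 7.27% and 56.0% over all. At equal length 15 of 52 were gained and 13 lost, where over all 29.0% were gained and 25.2% lost. Gained regions lay near Il4ra, the receptor chain (54.4), inside Jak1 (61.7), near Tyk2 (54.7) and inside Pik3r1, a PI3 kinase subunit (50.7). Il4ra lost 3, the highest inside the gene (106), Jak3 lost 5, and Cish and Il13ra1 lost regions of 170 and 162. Stat6 itself kept 3 distal regions. The one 10525 bp upstream, at chr10:127631645-127632430, scored 70.1 untreated and 145 with IL-4, at rank 1940, and in the KO libraries 130 untreated with no peak under IL-4. Another, 13575 bp downstream, scored 138 and 127 and went from rank 5789 to 2544. Akt2 likewise lost its start-site peak and kept a region 16954 bp upstream that went from rank 6427 to 2535 (128 and 127).

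The KO libraries, which had no part in choosing the regions, had a peak over some of the WT-specific ones. Peaks with none in either KO library ranged from 35.4% of lost edge to 60.3% of gained distal peaks. No such share is given here for shared WT peaks. Gained edge peaks had a KO untreated peak in 40.6% (34.6 to 46.9) and a KO IL-4 peak in 23.8% (18.7 to 29.5). Gained distal peaks had them in 26.3% (23.2 to 29.6) and 21.5% (18.6 to 24.6), and 60.3% had neither. Lost edge peaks had a KO untreated peak in 57.1% (55.2 to 59.1) and a KO IL-4 peak in 34.8% (32.9 to 36.7), and lost distal peaks in 39.6% and 22.2%. The KO untreated list is the longer of the pair, with 13714 peaks against 10443, and the part of list length was not tested. A peak of KO IL-4 alone, the WT pattern of a gained peak, was seen for 11.7% of gained edge peaks (8.05 to 16.3) and 13.4% of gained distal peaks (11.1 to 16.0), against 7.42% and 7.94% of lost ones. A peak of KO untreated alone was seen for 28.5% and 18.2% of gained peaks and 29.8% and 25.3% of lost ones. Of the 50 highest-scoring lost edge peaks, 50 had a KO untreated and 47 a KO IL-4 peak, so 47 of these WT losses had a peak in both KO states. Of the 19 gained regions near IL-4 targets, 4 had a KO IL-4 peak alone, 3 a KO untreated peak alone, 2 both and 10 neither.

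**Figure D5:**
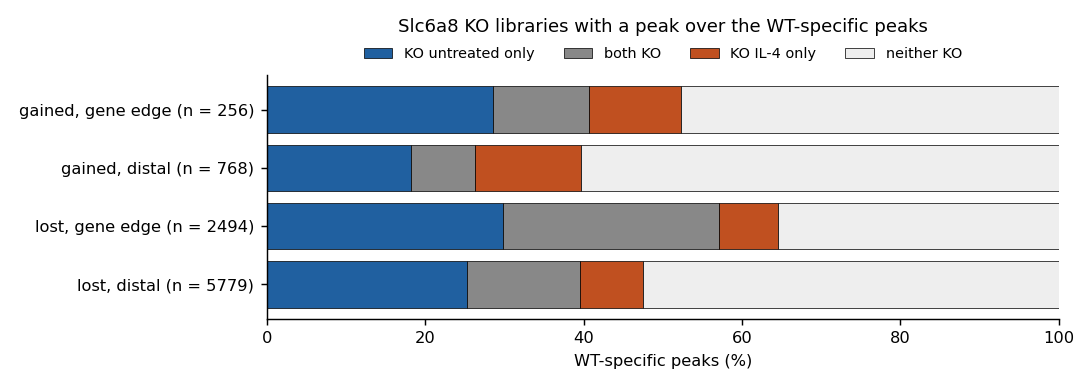
Percent of WT-specific peaks, gained or lost and at gene edges or distal, that had a peak in the untreated KO library alone, in both KO libraries, in the IL-4 KO library alone or in neither. Peaks with neither make up 47.7% of gained edge, 60.3% of gained distal, 35.4% of lost edge and 52.5% of lost distal peaks.

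Sequence was read in the 250 bases before 21263 start sites of 17492 genes. A gained peak lay over 192 of these windows, a lost peak over 2123, and 5310 had a peak in both lists. The motifs, searched on both strands, were STAT (TTCNNNGAA), AP-1 (TGANTCA), EGR (GCGTGGG), the CCAAT box (CCAAT), the E-box (CACGTG) and CRE (TGACGTCA). None of the 6 holds another within it, and a match is a description, not a site of binding. STAT letters were in 4.69% of gained windows (2.17 to 8.71), 5.65% of lost (4.71 to 6.72), 5.16% of shared (4.58 to 5.79) and 6.58% of all windows. The wider-spaced STAT6 pattern and the interferon element are not reported here. EGR letters were in 13.5% of gained (9.04 to 19.2), 7.82% of lost (6.71 to 9.04), 7.42% of shared and 5.46% of all. The gained and lost intervals for EGR meet at their ends. CCAAT was in 27.6% of gained (21.4 to 34.5), 31.8% of lost (29.8 to 33.8) and 46.5% of shared windows (45.2 to 47.9), and in 35.4% of all. In shared windows whose IL-4 peak scored no higher than the highest gained one it was 40.4% (38.5 to 42.4). AP-1 letters were in 3.12% of gained, 3.63% of lost and 3.45% of shared windows, and in 6.13% of all. GC content was 59.9%, 60.4% and 61.8% in gained, lost and shared windows, and 55.5% in all.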

How the data were processed

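Each library has its own deposited peak list, so peaks are per library. Per the submitters' processing notes the tools were Bowtie2 2.2.5, MACS 1.4.2 and HOMER, with build mm10; parameters and roles are not given in the sources used here. A peak's score is a deposited value of the authors without a stated unit, and it only ranked or filtered peaks of one list. Sequencing depth is unknown, which leaves the precision of a peak's absence unknown.

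Lists were compared by overlap of 1 bp or more, for all peaks and at equal length (9930 peaks). Genes were 21887 protein-coding genes of RefSeq GRCm38.p6, and promoters 21263 RefSeq start sites. Some genes have no listed start site or strand, and their regions are placed by distance alone. The members and lists were chosen with earlier results of these data known. The 27 gene lists held 663 entries, of which 659 were matched, and a gene could be in several lists. Motif letters were chosen by hand, and 2 longer patterns that had been searched are not reported, since no source used here gives their letters.

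Every gene of the 3 IL-4 lists may be named. From other lists up to 4 gained and 4 lost genes with the highest-scoring specific edge peak are named. Over all genes the 10 highest gained and lost peaks, and the 10 largest climbs and drops in rank, at gene edges and distal, are eligible. A few eligible genes are not reported here, though list counts include them. Promoters were shown where the window touches no gene span.

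Alternatives were a reciprocal overlap of 50%, a minimum score of 100, equal list lengths, gene edges of 2.5 kb and windows of 50 kb. Software was Python (3.11.15) with pandas (2.3.3), NumPy (2.4.6), Matplotlib (3.10.9) and SciPy (1.17.1). On simulated lists derived from the 17339 untreated peaks, the overlap step found 2996 of 3000 planted losses and 700 of 700 planted gains.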

Additional observations from a re-analysis of the deposited data

Results flagged for a closer look

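At 14 regions near genes of the IL-4 lists, WT and KO moved opposite ways with IL-4, a peak present in 1 state in WT and in the other state in KO. Each genotype has 1 library per state, and the difference between genotypes was not tested.

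Lost in WT and gained in KO were 9 of them. Their WT untreated scores were 101.35 at Clec7a (27070 bp downstream), 97.09 at the Ccl24 edge, 54.16 near Rnase2a, 61.19 near Flt1, 51.31 inside Cd36, 122.83 near Egr2, 146.46 near Pparg, 64.48 near Tyk2 and 51 near Ptpn1. The KO IL-4 scores at the same regions were 51.22, 78.57, 83.09, 66.67, 62.27, 96.3, 64.38, 62.16 and 52.74. Gained in WT and lost in KO were 5, with WT IL-4 scores of 52.07 near Matk, 58.41 and 109.54 near Egr3, 54.44 near Il4ra and 61.74 inside Jak1. The KO untreated scores there were 71.47, 104.53, 55.25, 59.26 and 84.06.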

How the results depend on the processing

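Presence or absence of a peak rests on 1 library per group of unknown depth, so every count below moves with list length and score. No paired analysis was possible because each group holds 1 library and no result comes from a test. The 1024 gained peaks became 2581 at equal list lengths and 171 under a minimum score of 100, and the 8273 lost became 2565 and 5065. The edge share of gained peaks was 31.1% with reciprocal overlap of 50%, 35.1% with a score of 100 or more, 30.8% at equal length and 31.6% with 2.5 kb edges. That of lost peaks was 31.5%, 48.3%, 39.6% and 36.2%. The gained share stayed below that of lost peaks in each, though under reciprocal overlap by less than 1 percentage point. Gained and lost peaks were not matched on score in any of these. Genes with a gained edge peak numbered 489, 89 and 867 under the first 3 of these, and genes with a lost one 1081 at equal length. Distal regions near IL-4 targets were 35 gained and 24 lost at equal length, 4 gained, 34 lost and 7 shared with a score of 100 or more, and 11 gained and 48 lost within 50 kb. An alternative added after the data were seen kept a specific peak if it scored at least 100 and the opposite list had nothing there, however weak. It left 18 gained and 1856 lost peaks, edge shares of 22.2% and 41.4%, 3 and 818 genes, and 2 gained and 15 lost distal regions near IL-4 targets. Lost peaks outnumbered gained ones in each alternative but the equal length. The cause was not tested.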
